A study of Mus musculus with 24 samples.

Results

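The Schlafen genes of the mouse form a family on chromosome 11, and 7 of its members were followed here in activated CD4+ T cells: Slfn1, Slfn2, Slfn3, Slfn4, Slfn5, Slfn8 and Slfn9. They were taken from a table of 54446 Ensembl identifiers as the rows whose identifier carries these symbols in the GENCODE M21 annotation, and all 7 passed the filter on low counts. CD4+ T cells came from the spleens of 3 wild-type mice (WT, labelled 1, 3 and 4) and 3 Aim2-/- mice (labelled 1, 2 and 4), all of the C57BL6 strain. Aim2 encodes a cytosolic sensor of DNA. RNA of each mouse's cells was sequenced without stimulation (0 h) and at 3, 6 and 24 h of anti-CD3/CD28, an antibody pair that triggers the T cell receptor together with costimulation, giving 24 libraries in 8 groups of 3. Ages and the design of the Aim2 allele are not given in the sources used here. Cells cultured for the same times without antibodies were not analysed here, so the time in culture and the stimulation cannot be told apart.

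Library totals lay between 19715161 and 21627018 counts, and 3 counts, taken as the floor of detection, corresponded to 0.139 to 0.152 CPM (counts per 1e+06, on library sizes scaled by TMM). That floor covers counting error only. CPM are relative to the library, so the changes below need not hold for transcripts per cell, which were not measured. The mouse labelled WT 1 did not match its label at Aim2. Its libraries held 21.5, 17.0, 11.5 and 5.57 CPM of Aim2 from 0 to 24 h, against 32.5 to 75.0 CPM in WT 3 and WT 4 and 5.28 to 20.1 CPM in the Aim2-/- libraries, so the differences between genotypes below are also given without that mouse. The 5 markers of CD4 T cells summed to 3153 to 3443 CPM at 0 h. Of the markers of other cells at 0 h, those of B and myeloid cells were higher in each Aim2-/- preparation than in any WT one. The 5 B cell markers summed to 3.20 to 4.60 CPM in WT and 10.1 to 34.2 CPM in Aim2-/-, the 8 myeloid markers to 30.6 to 55.2 and 99.1 to 350.8 CPM, and the 6 erythroid markers to 7.71 to 71.8 and 21.1 to 336.6 CPM, which overlapped. Markers of CD8 T cells (8.13 to 11.4 CPM in all) and NK cells (7.55 to 18.8 CPM) overlapped as well. The 4 dendritic markers, at 2.40 to 4.45 CPM in WT and 4.33 to 19.9 CPM in Aim2-/-, overlapped too. The B cell and myeloid sums were also higher in each Aim2-/- library at 3, 6 and 24 h. At 24 h the myeloid sums were 28.4 to 171.7 CPM, against 13.5 to 23.9 CPM in WT. Of the 19 B cell, myeloid and erythroid markers, Ly6g alone was at 0 in all 3 WT libraries of 0 h. None was at 0 in all 3 Aim2-/- libraries of 0 h. In such bulk samples fewer cells of a type and less RNA per cell cannot be told apart.

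Schlafen proteins take their name from the German word for sleep, after the growth arrest that Slfn1 causes in thymocytes and T cell lines. The short members, Slfn1 and Slfn2, consist of little more than the core Schlafen domain. Slfn3 and Slfn4 are of intermediate length, and the long members Slfn5, Slfn8, Slfn9 and Slfn14 add a helicase-like part. Slfn2 is required for T cells to stay quiescent and to survive activation, and it binds transfer RNAs and shields them from cleavage by the ribonuclease angiogenin. Several Schlafen genes are interferon-stimulated genes, and long members in other species restrict viruses.

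The cluster spanned 335.4 kb of chromosome 11 (GRCm38), from the start of Slfn5 at 82951349 to the end of Slfn14 at 83286726. On the forward strand lie Slfn5 (82951349 to 82964840), Slfn2 (83065112 to 83070678), Slfn1 (83116849 to 83122670), Slfn4 (83175186 to 83190216) and Slfn3 (83191330 to 83215154). Slfn9 (82978390 to 82991830) and Slfn8 (83002158 to 83020810) lie on the reverse strand. Near-identical stretches limit the counting of some members. Of the 51-base stretches in the spliced transcripts, the read length given for a related experiment of the study, 15.02% of those in Slfn3 occur in another gene on the same strand, as do 14.14% in Slfn8, 11.09% in Slfn9, 10.42% in Slfn4, 4.15% in Slfn2, 3.26% in Slfn5 and 0.55% in Slfn1. Slfn8 and Slfn9 share most of theirs with the pseudogene Slfn10-ps, and Slfn3 and Slfn4 share more with each other than with any other gene. The antisense gene Slfn5os covers 8.8% of the exon bases of Slfn5 but held 0 to 2 counts in every library, and Gm20234, opposite Slfn2, shares 0 exon bases with it.

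The upstream sequences are shown for Slfn5, Slfn8 and Slfn9, since these 3 members alone held the interferon response element searched for. RefSeq promoter windows of 300 bases (250 before and 50 after the start, GRCm38.p6) were found for 9 of the 10 Schlafen genes, all but Slfn10-ps. The element, spelled GAAA, any 2 bases, GAAA, and sought on both strands, occurs in 3.44% of all 32851 windows of the table. In each sequence below, written 5′ to 3′ on the strand of the gene, capitals mark the element. Slfn5 is given for chr11:82951852-82951984 (forward strand), 133 bases that lie in an intron of a longer GENCODE transcript of the gene. Slfn8 is given for chr11:83020811-83021060 and Slfn9 for chr11:82991831-82992080 (both reverse strand), each the 250 bases before the start.
Slfn5: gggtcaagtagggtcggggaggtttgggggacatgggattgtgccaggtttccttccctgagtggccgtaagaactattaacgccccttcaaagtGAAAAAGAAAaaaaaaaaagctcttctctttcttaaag
Slfn8: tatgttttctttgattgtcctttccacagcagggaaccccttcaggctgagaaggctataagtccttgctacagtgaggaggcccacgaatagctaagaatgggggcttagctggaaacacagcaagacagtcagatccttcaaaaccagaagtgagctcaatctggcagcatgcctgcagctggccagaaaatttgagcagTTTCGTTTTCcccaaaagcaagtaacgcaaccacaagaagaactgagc
Slfn9: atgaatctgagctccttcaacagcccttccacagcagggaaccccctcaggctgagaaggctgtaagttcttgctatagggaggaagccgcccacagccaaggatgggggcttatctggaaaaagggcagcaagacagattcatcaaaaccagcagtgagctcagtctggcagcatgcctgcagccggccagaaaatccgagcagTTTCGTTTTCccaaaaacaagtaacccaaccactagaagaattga
In Slfn5 the element ends 146 bases before the RefSeq start and reads along the gene. In Slfn8 and Slfn9 it lies on the opposite strand, 48 to 39 and 45 to 36 bases before the start, with the same letters in both. Aligned over their 250 bases, the Slfn8 and Slfn9 sequences are 80.2% identical, against 40.9% to 53.4% for the other pairs of Schlafen windows of different genes. A second RefSeq window of Slfn8, whose start lies downstream, holds the same element 136 to 127 bases before that start. The windows of Slfn1, Slfn2, Slfn3 and Slfn4 do not hold these letters. The AP-1 letters TGANTCA were found in the windows of Slfn4 and Slfn14, against 7.81% of all windows. Neither the STAT letters TTCNNNGAA (8.3% of all windows) nor the FOXO letters GTAAACA (3.65%) occurred in a Schlafen window. A match of letters is a description, not a bound site.

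Levels were compared between genes as CPM per kilobase of exon. Slfn2 was highest in each of the 8 groups and Slfn1 next. In unstimulated WT cells the mean levels were 385 ± 24.1 (SD, n = 3) for Slfn2, 195 ± 9.81 for Slfn1, 9.60 ± 0.815 for Slfn8, 5.27 ± 0.877 for Slfn5, 1.27 ± 0.344 for Slfn9, 1.05 ± 0.321 for Slfn3 and 0.132 ± 0.0182 for Slfn4. The libraries of neighbours in this order did not overlap, except those of Slfn9 and Slfn3. Among Aim2-/- cells of 0 h the order was the same, and no neighbours overlapped. At 3 and 6 h the libraries of Slfn8 and Slfn5 overlapped in both genotypes. At 24 h Slfn9, Slfn3 and Slfn5 could not be ordered in WT, with means of 4.68 ± 0.300, 4.66 ± 0.365 and 4.27 ± 2.07, and the Slfn5 libraries overlapped those of Slfn9 and of Slfn3 in Aim2-/- cells as well. Slfn4 was lowest in all 8 groups.

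**Figure D1:**
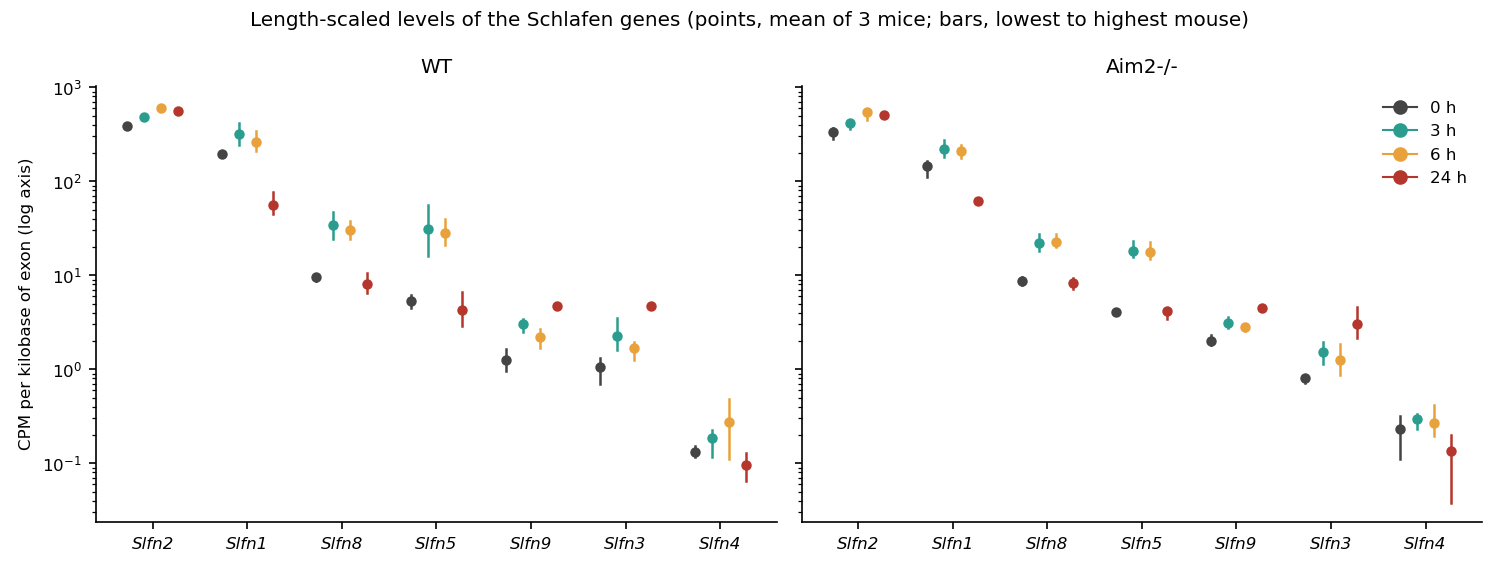
CPM per kilobase of exon (log axis) of the 7 Schlafen genes in WT and Aim2-/- cells. Points are means of 3 mice, bars run from the lowest to the highest mouse, and colours give the hours of activation. Slfn2 stays on top, Slfn1 drops at 24 h, and Slfn9 and Slfn3 reach the level of Slfn5 at 24 h.

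The members followed different time courses, seen in every mouse in the plot of CPM by hours of activation. Slfn2 rose and stayed high. Slfn5 and Slfn8 rose steeply by 3 h and were back near their starting level at 24 h. Slfn1 fell at 24 h, while Slfn9 and Slfn3 were highest at 24 h. Slfn4 stayed near the floor.

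**Figure D2:**
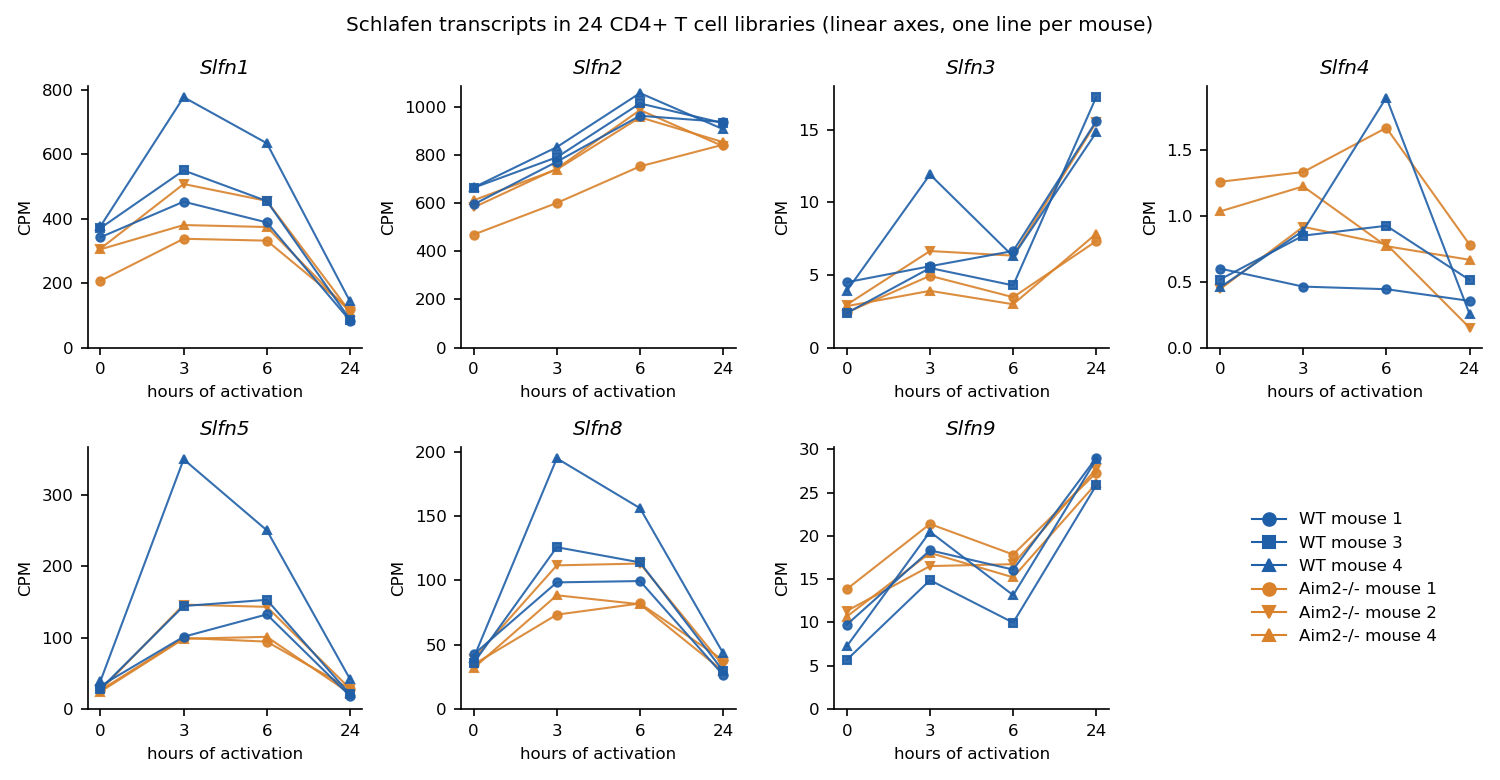
CPM (linear axes from 0) of each Schlafen gene against hours of activation, with 1 line per mouse. WT mice are blue and Aim2-/- mice orange. Mouse WT 4 is the highest line for Slfn1, Slfn5 and Slfn8 at 3 and 6 h.

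With edgeR's quasi-likelihood test and an adjusted p under 0.05, 6 of the 7 members rose at 3 h in WT, against 16.2% of all genes tested that rose. At 6 h 4 rose, against 26.4% of all genes, and at 24 h 3 rose and 1 fell, against 36.6% and 34.8%. Among Aim2-/- cells 4 rose at 3 h, 4 at 6 h and 3 at 24 h, where 1 fell. The shares of all genes called there were 16.1%, 28.5% and 36.8% for rises and 33.5% for falls at 24 h. The median log2 change of the members was 1.09 at 3 h, 0.79 at 6 h and -0.25 at 24 h in WT, against 0.02, 0.02 and -0.01 over all genes. For Aim2-/- cells it was 0.64, 0.64 and 0.04, against 0.02, 0.08 and 0.03. The count of 6 at 3 h in WT rested on weak calls. It fell to 3 without mouse WT 4 or WT 3, where Slfn1, Slfn2 and Slfn3 no longer passed. The same held without the 3 h library of WT 4 or the 0 h library of WT 3 or of WT 4. In these fits, in that order, 22.5%, 18.7%, 29.4%, 26.4% and 26.0% of all genes were called. With all mice 32.6% were called in either direction. The 4 calls at 3 h in Aim2-/- cells fell to 2 without Aim2-/- mouse 4, where Slfn2 and Slfn9 no longer passed. The 4 calls became 6, as in WT, with library totals, a mean of at least 1 CPM, the mouse block, marker scores or DESeq2. In that order these fits called 32.5%, 37.4%, 41.2%, 31.4% and 32.0% of all genes. The 4 calls at 6 h in WT were 6 with the mouse block or marker scores. There 59.2% and 50.2% of all genes were called in either direction, against 51.1% in the main fit.

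**Figure D3:**
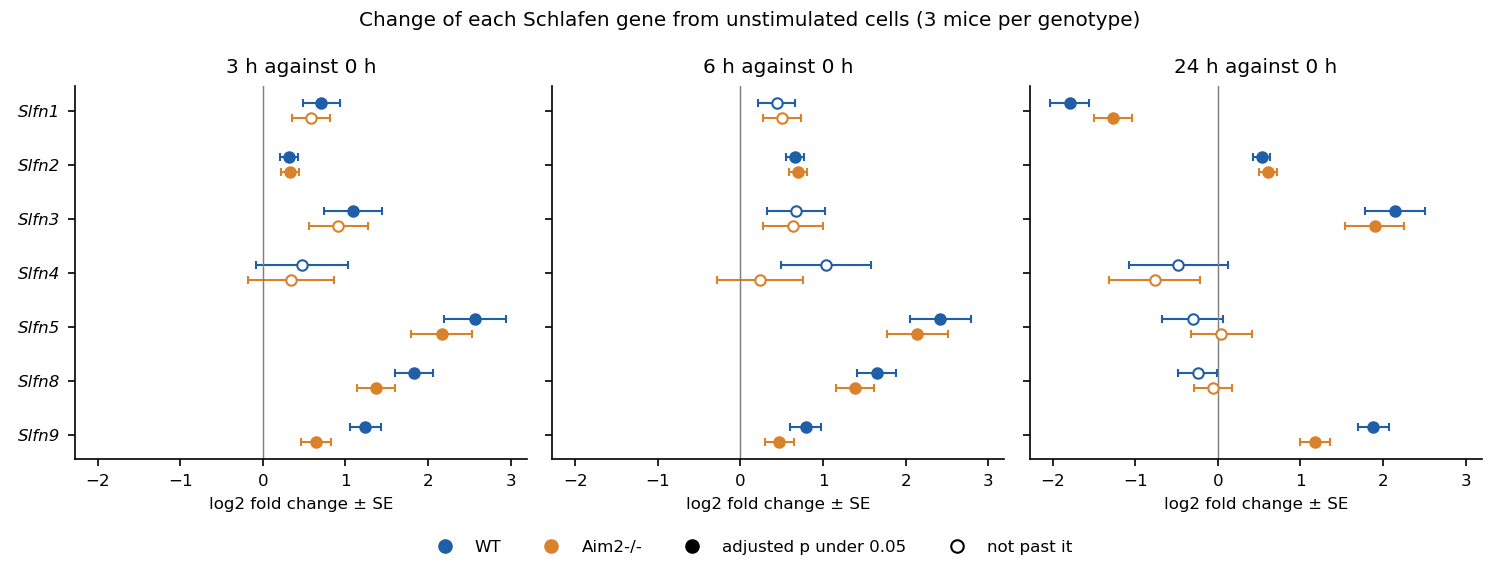
Log2 fold change against 0 h for each Schlafen gene at 3, 6 and 24 h in WT (blue) and Aim2-/- (orange), 3 mice per genotype. Bars are ± SE, derived from the test statistic. Filled points passed an adjusted p of 0.05. Slfn5 and Slfn8 lie above 1 at 3 and 6 h and near 0 at 24 h, Slfn1 lies below -1 at 24 h, and Slfn3 and Slfn9 lie above 1 at 24 h.

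Slfn2, the keeper of quiescence, was the most abundant member and rose in a stepwise way. In WT mice 1, 3 and 4 it measured 595, 664 and 665 CPM at 0 h, 772, 790 and 833 at 3 h, 963, 1014 and 1057 at 6 h, and 937, 932 and 907 at 24 h. In Aim2-/- mice 1, 2 and 4 it measured 469, 582 and 612 CPM at 0 h, 601, 743 and 740 at 3 h, 753, 987 and 956 at 6 h, and 843, 836 and 853 at 24 h. All 6 mice were above their own 0 h value at each time, and in WT no stimulated library overlapped those of 0 h. The log2 change against 0 h in WT was 0.32 at 3 h (SE 0.108, adjusted p = 0.0287), 0.66 at 6 h (adjusted p = 2.94e-05) and 0.53 at 24 h (adjusted p = 0.000175). The changes in Aim2-/- cells were 0.33 (adjusted p = 0.0264), 0.70 (1.70e-05) and 0.61 (4.15e-05). Slfn2 was also the member that rose between 3 and 6 h, by 0.34 in WT (adjusted p = 0.0237) and 0.37 in Aim2-/- cells (0.0164), where 14.2% and 13.4% of all genes rose. The 3 h rise in WT did not pass without WT 1 (0.29, adjusted p = 0.168), WT 3 (0.33, 0.168) or WT 4 (0.28, 0.216). In Aim2-/- cells the 3 h rise did not pass without mouse 2 (0.31, adjusted p = 0.104) or mouse 4 (0.35, 0.0833). The step from 3 to 6 h did not pass without WT 1 (0.35, adjusted p = 0.0933), WT 3 or WT 4, nor without Aim2-/- mice 2 or 4. The change from 6 to 24 h did not pass in either genotype.

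Slfn1, the founding member, known for halting cell growth when overexpressed, was the only Schlafen gene to fall at 24 h in both genotypes. WT mice 1, 3 and 4 had 342.5, 371 and 376.5 CPM at 0 h, 453, 550 and 777 at 3 h, 388.5, 455 and 634 at 6 h, and 83.8, 87.2 and 144 at 24 h. The Aim2-/- mice, in the order 1, 2 and 4, showed 207, 307 and 305 CPM at 0 h, 338, 508 and 380 at 3 h, 332, 455 and 374 at 6 h, and 118, 111 and 111 at 24 h. Every mouse was above its own start at 3 and 6 h and below it at 24 h, and no library of 24 h reached the lowest of 0 h. The fall at 24 h was 3.47-fold in WT, a log2 change of -1.79 (SE 0.234, adjusted p = 6.23e-07), and 2.40-fold in Aim2-/- cells, a log2 change of -1.26 (SE 0.230, adjusted p = 5.27e-05). From 6 to 24 h it fell 4.70-fold in WT and 3.41-fold in Aim2-/- cells (adjusted p = 9.13e-08 and 2.38e-06). The earlier values were less firm. At 3 h Slfn1 rose by 0.71 on the log2 scale in WT (SE 0.227, adjusted p = 0.0200). The log2 change was 0.58 in Aim2-/- cells at 3 h (adjusted p = 0.0574), 0.44 in WT at 6 h (0.113) and 0.50 in Aim2-/- cells at 6 h (0.0694). With mouse as a block these 3 passed, at adjusted p = 0.000885, 0.0102 and 0.00160. As a share of the summed CPM of the 7 members, Slfn1 made up 33.4% at 0 h and 9.24% at 24 h in WT, and 30.2% and 10.8% at these times in Aim2-/- cells. Slfn2 made up 58.9% and 81.6% in WT.

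Slfn5 and Slfn8, long members with a helicase-like part, had the largest early rises of the family. Slfn5 in WT mice 1, 3 and 4 measured 32.4, 28.3 and 39.3 CPM at 0 h, 101, 144 and 350 at 3 h, 133, 153 and 250.4 at 6 h, and 18.3, 20.6 and 42.0 at 24 h. In Aim2-/- mice 1, 2 and 4 it measured 26.3, 26.2 and 24.4 CPM at 0 h, 99.7, 146 and 98.5 at 3 h, 94.5, 143 and 101 at 6 h, and 28.3, 28.7 and 21.9 at 24 h. The libraries of 3 and 6 h lay above all libraries of 0 and 24 h in both genotypes, and WT 4 stood well above the other WT mice at both early times. Slfn5 rose 5.95-fold at 3 h in WT (log2 2.57, SE 0.375, adjusted p = 1.85e-05) and 4.48-fold in Aim2-/- cells (log2 2.16, SE 0.373, adjusted p = 0.000154). Without WT 4 the change in WT at 3 h was 1.99 on the log2 scale (adjusted p = 1.55e-05). At 6 h it was 5.36-fold and 4.41-fold above 0 h (adjusted p = 1.32e-05 and 6.20e-05), and the change from 3 to 6 h did not pass in either genotype. From 6 to 24 h it fell 6.62-fold in WT and 4.29-fold in Aim2-/- cells (adjusted p = 3.41e-06 and 7.57e-05). At 24 h against 0 h in WT the log2 change was -0.31 (adjusted p = 0.467). With mouse as a block it passed at -0.41 (adjusted p = 0.0448), and without WT 4 at -0.68 (adjusted p = 0.0169). WT 4 itself had 42.0 CPM at 24 h against 39.3 CPM at 0 h.

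Slfn8 followed Slfn5 closely at smaller folds. WT mice 1, 3 and 4 had 42.4, 35.8 and 39.7 CPM at 0 h, 98.4, 126 and 195 at 3 h, 99.4, 114 and 156 at 6 h, and 26.4, 29.7 and 43.4 at 24 h. Aim2-/- mice 1, 2 and 4 showed 34.6, 39.1 and 31.9 CPM at 0 h, 73.3, 112 and 88.4 at 3 h, 82.0, 113 and 81.4 at 6 h, and 38.0, 33.9 and 29.5 at 24 h. As for Slfn5, libraries of 3 and 6 h did not overlap those of 0 or 24 h in either genotype, and WT 4 was the highest mouse. The rise at 3 h was 3.55-fold in WT (log2 1.83, SE 0.233, adjusted p = 3.95e-06) and 2.59-fold in Aim2-/- cells (log2 1.37, SE 0.232, adjusted p = 0.000127). Slfn8 stood 3.13-fold and 2.62-fold above 0 h at 6 h, and fell 3.71-fold and 2.73-fold from 6 to 24 h, with adjusted p between 7.62e-07 and 3.87e-05. The log2 change at 24 h against 0 h in WT was -0.25 (adjusted p = 0.352), and it passed without WT 4 (-0.52, adjusted p = 0.0376). In Aim2-/- cells the 24 h values of Slfn5 and Slfn8 overlapped those of 0 h and did not pass.

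Slfn9, the long member beside Slfn8 on the reverse strand, had a different course. WT mice 1, 3 and 4 had 9.75, 5.69 and 7.25 CPM at 0 h, 18.3, 14.9 and 20.5 at 3 h, 16.1, 9.98 and 13.2 at 6 h, and 29.0, 25.9 and 28.9 at 24 h. Aim2-/- mice 1, 2 and 4 gave 13.9, 11.3 and 10.7 CPM at 0 h, 21.4, 16.5 and 18.03 at 3 h, 17.8, 16.7 and 15.2 at 6 h, and 27.3, 27.8 and 26.1 at 24 h. The 24 h libraries lay above all others in both genotypes, and every mouse was above its start at each time. Slfn9 rose 2.36-fold at 3 h in WT (log2 1.24, SE 0.184, adjusted p = 2.26e-05), was 1.73-fold above 0 h at 6 h (adjusted p = 0.00110) and reached 3.69-fold at 24 h (log2 1.88, SE 0.186, adjusted p = 9.73e-09). Its levels in Aim2-/- cells were 1.56-fold, 1.39-fold and 2.26-fold above 0 h (adjusted p = 0.00951, 0.0329 and 6.22e-06). The 6 h call in Aim2-/- cells did not pass without any of the 3 mice in turn (adjusted p = 0.0597 to 0.152). All 3 WT mice were lower at 6 than at 3 h, a log2 change of -0.45 (adjusted p = 0.0699) that passed with mouse as a block (-0.46, adjusted p = 0.00433). From 6 to 24 h Slfn9 rose 2.13-fold in WT and 1.63-fold in Aim2-/- cells (adjusted p = 2.63e-05 and 0.00221).

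Slfn3, of intermediate length, was scarce but had the largest fold change of the members at 24 h in both genotypes. WT mice 1, 3 and 4 had 4.50, 2.38 and 3.90 CPM at 0 h, 5.60, 5.48 and 11.9 at 3 h, 6.65, 4.28 and 6.28 at 6 h, and 15.6, 17.3 and 14.8 at 24 h. Aim2-/- mice 1, 2 and 4 held 2.42, 2.95 and 2.86 CPM at 0 h, 4.94, 6.65 and 3.91 at 3 h, 3.47, 6.33 and 2.98 at 6 h, and 7.34, 15.5 and 7.85 at 24 h. At 24 h the WT mice and Aim2-/- mouse 2 lay together, well above Aim2-/- mice 1 and 4. The rise at 24 h was 4.42-fold in WT (log2 2.14, SE 0.358, adjusted p = 1.78e-05) and 3.72-fold in Aim2-/- cells (log2 1.90, SE 0.361, adjusted p = 8.78e-05). From 6 to 24 h Slfn3 rose 2.77-fold and 2.40-fold (adjusted p = 0.00113 and 0.00459), and the step in Aim2-/- cells did not pass without the 24 h library of mouse 2 (log2 0.83, adjusted p = 0.0562). At 3 h it rose by 1.09 on the log2 scale in WT (adjusted p = 0.0217), and without WT 4 that change was 0.66 (adjusted p = 0.310). Its log2 change at 3 h in Aim2-/- cells was 0.91 (adjusted p = 0.0602) and passed with mouse as a block (0.89, adjusted p = 0.00997). At 6 h the changes were 0.67 in WT (adjusted p = 0.120; 0.0263 with the block) and 0.64 in Aim2-/- cells (0.151; 0.0693 with the block).

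Slfn4, next to Slfn3 on the chromosome and known mainly from macrophages and other myeloid cells, was near the floor with 3 to 39 counts per library. It measured 0.443 to 1.90 CPM across the 0, 3 and 6 h libraries and 0.151 to 0.783 CPM at 24 h. None of its changes against 0 h passed in either genotype. It fell from 6 to 24 h in WT (log2 -1.52, SE 0.565, adjusted p = 0.0268), where mice 1, 3 and 4 had 0.443, 0.925 and 1.90 CPM at 6 h and 0.355, 0.514 and 0.257 at 24 h. The groups overlapped, and without WT 4 the change was -0.66 (adjusted p = 0.446). In Aim2-/- cells the change from 6 to 24 h was -1.005 (adjusted p = 0.124) and -1.05 with mouse as a block (adjusted p = 0.0455). In the Aim2-/- mice 1, 2 and 4 Slfn4 measured 1.26, 0.443 and 1.03 CPM at 0 h, where the summed myeloid markers were 351, 99.1 and 164 CPM, and both were highest in mouse 1 and lowest in mouse 2. In WT at 6 h the order was the reverse, with myeloid markers at 46.2, 32.5 and 21.5 CPM in mice 1, 3 and 4, and WT 4 had the highest Slfn4 of all 24 libraries. The part of myeloid RNA in the Slfn4 values was not tested.

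From 6 to 24 h members moved in both directions, as genes in general did. In WT 2 members rose and 4 fell, and in Aim2-/- cells 2 rose and 3 fell, against 29.6% and 28.0% of all genes in WT and 27.4% and 27.0% in Aim2-/- cells. Slfn1, Slfn5 and Slfn8 fell and Slfn3 and Slfn9 rose in both genotypes. Slfn4, near the floor, fell in WT, but not without WT 4 (adjusted p = 0.446, edgeR). The summed CPM of the 7 members went from 1089 ± 55.0 at 0 h to 1756 ± 385 at 3 h, 1825 ± 264 at 6 h and 1135 ± 39.3 at 24 h in WT (SD, n = 3). The sums in Aim2-/- cells were 904 ± 129, 1334 ± 197, 1513 ± 220 and 1056 ± 6.43. The 24 h totals lay within 1051 to 1180 CPM in all 6 mice.

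Outside the 7 members, Slfn10-ps, a transcribed pseudogene between Slfn8 and Slfn2, had 1.92 to 5.85 CPM at 0 h and 9.05 to 15.5 CPM at 24 h, and it rose at 24 h in both genotypes (log2 1.69 and 1.497, adjusted p = 8.10e-05 and 0.000334). At 24 h it too was high in Aim2-/- mouse 2 (15.1 CPM) and lower in mice 1 and 4 (9.05 and 9.13 CPM). Of its 51-base stretches 19.24% occur in other genes, most of them in Slfn9. Reads of such stretches could be split between the pseudogene and Slfn9 or Slfn8, or left uncounted. How they were counted is not given in the sources used here. Slfn14, known from platelets and red cell precursors, had 0 to 8 counts in every WT library. It had 4 to 55 counts in Aim2-/- mice 1 and 4 and 0 to 2 in mouse 2, and the summed erythroid markers at 0 h were 337, 21.1 and 201 CPM in Aim2-/- mice 1, 2 and 4. No comparison of Slfn14 passed, but with mouse as a block it was lower at 24 h than at 0 h and at 6 h in Aim2-/- cells (log2 -2.13 and -2.20, adjusted p = 0.0129 and 0.0122). Slfnl1, on chromosome 4, had 0 to 9 counts and was not tested.

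Next, the genotypes were compared at each time. Slfn9 was the only member to pass, at 0 h. Its libraries did not overlap there, with 5.69 to 9.75 CPM in WT and 10.7 to 13.9 CPM in Aim2-/- cells, a position held by 14.1% of all genes. It was 1.58-fold higher in Aim2-/- cells (log2 0.66, SE 0.184, adjusted p = 0.0427), and without the mouse labelled WT 1 the log2 difference was 0.89 (adjusted p = 0.0116). Among all genes tested 5.23% were called at 0 h, so 1 of 7 members is read against that share. The call did not hold under limma-voom (adjusted p = 0.0577), with library totals in place of TMM (0.0551) or on the 6 libraries alone (0.124). It also did not hold without WT 3 (log2 0.454, adjusted p = 0.192), WT 4 (0.598, 0.187), Aim2-/- mouse 1 (0.544, 0.229) or Aim2-/- mouse 4 (0.735, 0.0983). In these leave-out fits 0.191%, 0.237%, 1.04% and 0.802% of all genes were called. The call held with RLE factors, DESeq2, no filter or a mean of at least 1 CPM. With mouse as a random block in limma-voom it held as well (log2 0.68, adjusted p = 0.0301). When scores for B, myeloid and erythroid cell markers entered the fit as covariates, the log2 difference was 0.62 (adjusted p = 0.147). Within the Aim2-/- group Slfn9 was highest in mouse 1, which also had the highest B cell, myeloid and erythroid markers, but lowest in mouse 4, where these markers were above those of mouse 2. In WT it was lowest in mouse 3, which had the highest myeloid and erythroid markers. It was highest in the mouse labelled WT 1, which had the highest B cell markers (4.60 CPM).

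At 3, 6 and 24 h 0 members passed between genotypes, where 0.294%, 15.8% and 0.666% of all genes were called. At an unadjusted p under 0.05, edgeR's test gave 3 members at 3 h (Slfn1, Slfn5 and Slfn8) and 0 at 6 and 24 h, against 15.3%, 34.1% and 20.5% of all genes. DESeq2's Wald test and limma-voom likewise called 0 members at these times. At 3 h the log2 differences, Aim2-/- minus WT, were -0.79 for Slfn5 (SE 0.352, adjusted p = 0.290), -0.62 for Slfn8 (SE 0.225, adjusted p = 0.215) and -0.54 for Slfn1 (SE 0.226, adjusted p = 0.267). Without the mouse labelled WT 1 they were -1.11 (adjusted p = 0.0796), -0.82 (0.0540) and -0.70 (0.106). Without WT 4 they were -0.10 (adjusted p = 0.915), -0.30 (0.706) and -0.30 (0.720), and with marker scores in the fit -0.44, -0.40 and -0.32 (adjusted p = 0.709, 0.524 and 0.631). With no filter on low counts, Slfn5, Slfn8 and Slfn1 passed at 3 h (-0.80, -0.63 and -0.55, adjusted p = 0.0122, 0.00835 and 0.0329), as did Slfn5 and Slfn8 at 6 h (adjusted p = 0.00916 and 0.0239), where 2.47% and 9.38% of 31367 genes passed. The groups overlapped for all 3 genes at 3 h, and WT 4 had the highest value of each. At 6 h the differences were -0.66 for Slfn5 and -0.42 for Slfn8 (adjusted p = 0.189 and 0.195), and -0.84 and -0.55 without WT 1 (0.0979 and 0.0991). Without WT 4 they were -0.38 and -0.26 (adjusted p = 0.245 and 0.399), and with marker scores -0.20 and -0.13 (0.763 and 0.762). Slfn2 was 1.10-fold to 1.16-fold lower on average in Aim2-/- cells at the 4 times, with adjusted p from 0.240 to 0.507 (0.239 to 0.634 without WT 1). Its libraries did not overlap at 3 and 24 h, where all Aim2-/- libraries lay below all WT ones for 7.31% and 10.2% of all genes. The same held at 0 h for Slfn1 and Slfn5 (14.4% of all genes), and at 3 h Slfn4 lay higher without overlap (7.8% of all genes), in each case without passing the test. Slfn3 at 24 h had a log2 difference of -0.64 (SE 0.339, adjusted p = 0.294), and -0.65 without WT 1 (0.379). It passed without Aim2-/- mouse 2 (-1.07, adjusted p = 0.0292), where 17.3% of all genes did, and was -0.15 with marker scores (adjusted p = 0.906). With the 4 libraries of each mouse summed, 0 members passed, also at an unadjusted p under 0.05, against 0.0117% of all genes at the adjusted and 23.3% at the unadjusted threshold. Without WT 1 again 0 passed, and without Aim2-/- mouse 2 Slfn3 alone did (-0.88, adjusted p = 0.0235), against 16.7% of all genes.

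**Figure D4:**
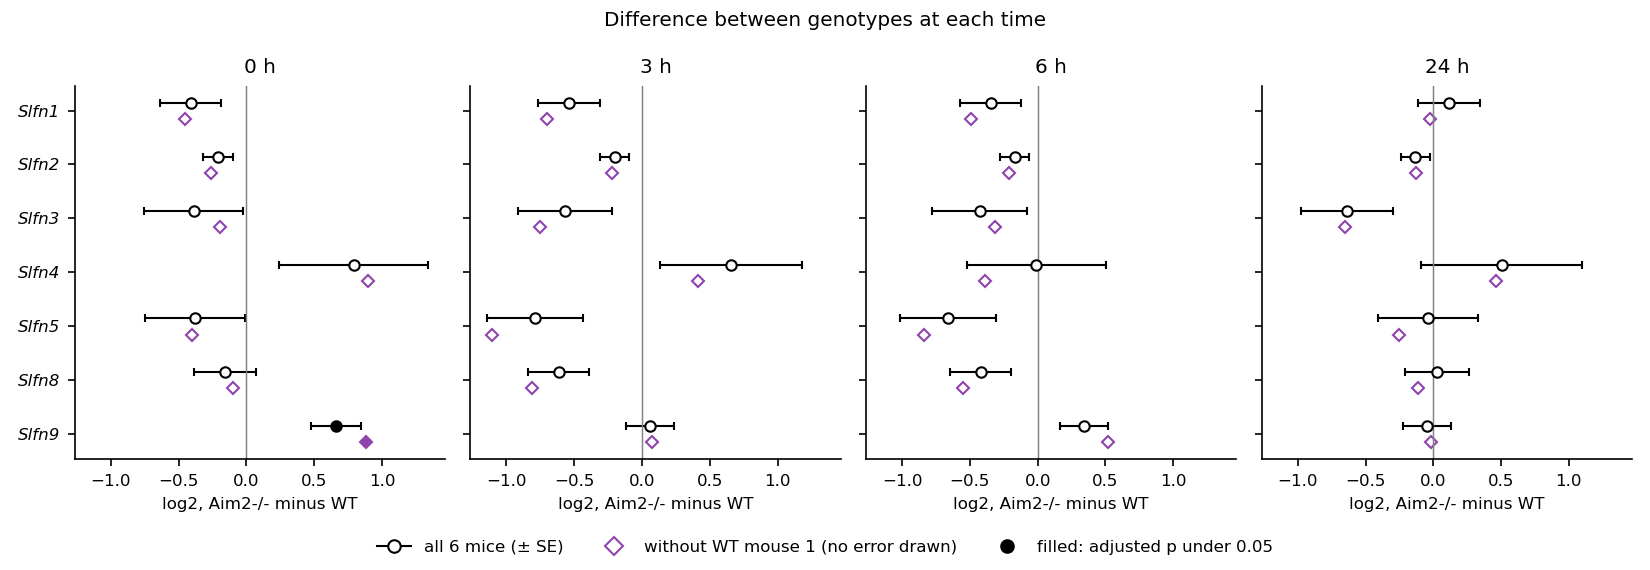
Log2 difference, Aim2-/- minus WT, of each Schlafen gene at 0, 3, 6 and 24 h. Circles with bars (± SE) use all 6 mice and purple diamonds leave out the mouse labelled WT 1 (no error drawn); filled symbols passed an adjusted p of 0.05, which Slfn9 at 0 h alone did.

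The responses of the genotypes were then compared as an interaction. No member passed at 3, 6 or 24 h, against 0.0%, 0.0261% and 0.0% of all genes, and none passed without WT 1. At an unadjusted p under 0.05 there were 1, 0 and 1 members, in each case Slfn9, against 4.26%, 13.2% and 11.9% of all genes. The response of Slfn9 at 24 h was smaller in Aim2-/- cells by 0.71 on the log2 scale (SE 0.255, adjusted p = 0.269), and with mouse as a block by 0.72 (adjusted p = 0.0282). Without the mouse labelled WT 1 the unblocked interaction was -0.90 (adjusted p = 0.139). The 24 h levels of Slfn9 overlapped between genotypes, at 25.9 to 29.0 and 26.1 to 27.8 CPM, so the interaction rests on the 0 h values given above.

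Interferon-stimulated genes moved on the time scale of Slfn5 and Slfn8. The list of 20 such genes held no Schlafen gene. In WT 16 rose at 3 h and 15 at 6 h, against 16.2% and 26.4% of all genes. In Aim2-/- cells 15 rose at each of these times, against 16.1% and 28.5%. The medians were 1.38 and 1.21 in WT and 0.98 and 1.08 in Aim2-/- cells. Over all genes they were 0.02, 0.02, 0.02 and 0.08. From 6 to 24 h 19 of the 20 fell in each genotype, against 28.0% of all genes in WT and 27.0% in Aim2-/- cells. The medians of this step were -1.90 and -1.49, against -0.04 and -0.04 over all genes. At 24 h against 0 h 5 rose and 8 fell in WT, where 36.6% of all genes rose and 34.8% fell. The summed level of the 20 genes at 3 h was 2138, 2256 and 3313 CPM in WT mice 1, 3 and 4. The mouse with the highest Slfn5, Slfn8 and Slfn1 thus also had the highest sum. At 6 h WT 4 again led with 2938 CPM against 1818 and 2138. By the rule of largest changes at 24 h in WT, Bst2, which tethers budding virus, rose from 31.1 ± 3.89 to 123 ± 4.24 CPM, and Ifit3, an antiviral RNA-binding factor, from 4.32 ± 1.15 to 15.6 ± 7.72 CPM (SD, n = 3). Rsad2, or viperin, fell from 5.41 ± 2.33 to 0.547 ± 0.419 CPM, and Ddx58, the RNA sensor RIG-I, from 118.7 ± 1.67 to 20.3 ± 7.43 CPM.

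**Figure D5:**
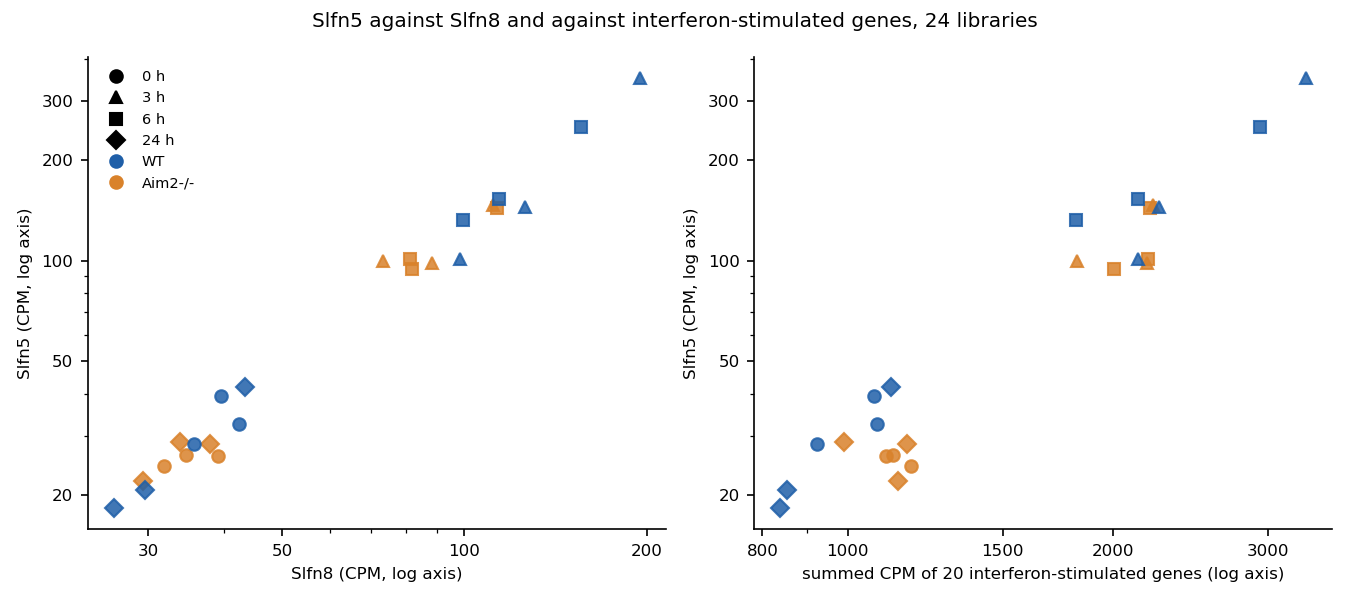
Slfn5 (CPM, log axes) against Slfn8 (CPM, left) and against the summed CPM of 20 interferon-stimulated genes (right) in 24 libraries. Symbols give the hours and colours the genotype; libraries of 3 and 6 h form the upper group in both panels and those of 0 and 24 h the lower, with WT 4 at 3 h at the top.

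The genes most like each member were found by Pearson's r of log2 CPM over the 24 libraries, which share 6 mice and 4 times. For Slfn5 and Slfn8 each was the other's closest of 15325 genes (r = 0.993), and r was 0.942 after the group means had been removed. Next came Samhd1, a dNTP hydrolase that restricts viruses (r = 0.986 and 0.989), and then Rtp4 for Slfn5 (0.973) and Xaf1 for Slfn8 (0.977), both interferon-stimulated. Samhd1 went from 628 CPM at 0 h to 2336 at 3 h, 2314 at 6 h and 603.5 CPM at 24 h in WT on average. Slfn1 was closest to Fam102a (0.983), the noncoding Gm2682 (0.981) and Peli1 (0.979), a ubiquitin ligase that restrains T cell activation. It also moved with Slfn5 and Slfn8 within groups, with r of 0.849 and 0.861 after removal of group means, although its r with them over all libraries was 0.811 and 0.823. Among the genes most like Slfn2 were Ggact and Nudcd3 (both 0.940). Slfn3 was closest to Smc1a (0.944), a cohesin subunit, Cdk5rap2 (0.943) and Clasp1 (0.937), and Slfn9 to Ctnna1 (0.948), Cchcr1 (0.935) and Diaph3 (0.934). For Slfn4, at its low counts, the highest values were 0.855 for Car8, 0.821 for Alpk1 and 0.817 for Tcrg-C4. Slfn9 was not alike Slfn8, its neighbour with the similar upstream sequence (r = -0.069).

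Genes flanking the cluster did not share the courses of Slfn5 and Slfn8. Nle1, a ribosome assembly gene and the nearest tested gene before Slfn5, rose at 3, 6 and 24 h in WT (log2 1.46, 1.75 and 1.74, adjusted p at most 1.02e-05), without a fall from 6 to 24 h (-0.01, adjusted p = 0.955). AA465934, the nearest tested gene after Slfn14, did not pass against 0 h in WT (3.56 to 5.18 CPM on average) and rose at 24 h in Aim2-/- cells (log2 0.74, adjusted p = 0.00236).

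Genes of T cell quiescence, the state that Slfn2 maintains, mostly fell. Of 20 such genes 15, 15 and 19 fell at 3, 6 and 24 h in WT, against 16.4%, 24.8% and 34.8% of all genes. In the same cells 1, 3 and 0 rose, against 16.2%, 26.4% and 36.6%. In Aim2-/- cells 14, 14 and 19 fell, against 14.6%, 22.7% and 33.5%, and 1 rose at each time, against 16.1%, 28.5% and 36.8%. The medians were -1.05, -1.38 and -2.15 in WT and -0.84, -1.09 and -1.99 in Aim2-/- cells, against medians near 0 over all genes. S1pr1, the receptor for exit from lymphoid tissue, fell from 1460 ± 159 to 42.6 ± 10.4 CPM at 24 h in WT, and Il7r, the receptor chain for interleukin 7, from 946 ± 44.0 to 32.6 ± 7.66 CPM (SD, n = 3). Slfn2 rose over the same hours. Of 5 genes around the cleavage of transfer RNA by angiogenin, 2 rose at 3 h, 3 at 6 h and 4 at 24 h in WT. The shares of all genes that rose were 16.2%, 26.4% and 36.6%. At 24 h in WT 1 fell, against 34.8% of all genes. In Aim2-/- cells 2, 3 and 3 rose, against 16.1%, 28.5% and 36.8%. Nsun2, a methyltransferase that protects transfer RNAs, rose from 133 ± 2.15 to 713 ± 46.4 CPM at 24 h in WT, and Elac2, which trims their precursors, from 52.5 ± 5.04 to 170.4 ± 5.35 CPM. Ang, angiogenin itself, was near the floor and fell from 0.505 ± 0.346 to 0.0676 ± 0.117 CPM (log2 -2.79, SE 0.803, adjusted p = 0.00400). Its 24 h mean was below the floor of 0.139 to 0.152 CPM.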

How the data were processed

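The authors deposited 1 table of raw gene counts, not normalized, which the submitters' notes tie to STAR and GRCm38. The paper names single-end 51-base reads and a stranded kit for a related experiment. Whether counting used the strand is not given in the sources used here. The table's 54446 identifiers were matched to GENCODE M21 (54409 found). Rows of all libraries were fitted with edgeR 4.0.16 (glmQLFit and glmQLFTest, two-sided, R 4.3.3), 1 mean per group over 24 libraries, TMM factors and filterByExpr at a minimum count of 10. That left 15325 genes. The Benjamini-Hochberg method gave adjusted p-values for each comparison, called under 0.05. Each SE was derived as the size of the log2 change divided by the square root of the test's F statistic. CPM used TMM-scaled library sizes, and log2 CPM a prior count of 2. The check on simulated counts (WT at 24 h against 0 h, 14800 genes) recovered 30% of changes of 1.5-fold and 50% of 2-fold. It recovered 63.8% of 3-fold and 81.6% of 4-fold changes, with 3 false calls. In it 50 genes changed at each fold, far fewer than were called in the data at 24 h, so the shares recovered there may differ.

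Each mouse gave all 4 time points per the labels. Deviations from group means correlated with r of 0.139 to 0.567 for 36 pairs of libraries of the same mouse, and -0.432 to 0.0742 for 72 pairs of different mice, so libraries of a mouse are paired. No 2 replicates agreed within sampling noise (chi-square per degree of freedom 6.75 to 53.4). Alternatives were RLE factors, library totals, DESeq2 1.42.0, limma-voom (limma 3.58.1), no filter, a mean of at least 1 CPM, fits of the compared libraries alone, a block for the mouse, a block for the mouse number, marker scores as terms (log of CPM plus 0.1), and each library or mouse left out. Exon lengths, positions and shared 51-base stretches came from GENCODE M21, promoter windows from RefSeq on GRCm38.p6. Windows were aligned with Biopython 1.88. The genes named are the 7 members, Aim2, 3 other Schlafen genes, the 3 genes most like each member, the nearest tested gene on each side of the cluster, and the 2 largest rises and falls of each list at 24 h in WT. The members and lists were chosen with earlier results of these data known. Some results that this rule would name are not reported here.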

Additional observations from a re-analysis of the deposited data

Results flagged for a closer look

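The response of Slfn9 at 24 h differed between the genotypes when mouse was kept as a block: the interaction was -0.72 on the log2 scale (adjusted p = 0.0282, edgeR), with all 3 mice of each genotype above their 0 h value. Without the block it was -0.71 (adjusted p = 0.269), and over the other unblocked settings and the fits with a library or mouse left out the adjusted p lay between 0.116 and 0.971. In WT the change was 1.88 and in Aim2-/- cells 1.18. The summed myeloid and B cell markers were also higher in each Aim2-/- library of 0 h than in any WT one, and the erythroid markers overlapped. The interaction rests on these 0 h libraries. The part of the marked cells in it was not tested beyond the fit with marker scores (-0.67, adjusted p = 0.247).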

How the results depend on the processing

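Every called change of a single Schlafen gene kept its direction in each alternative run for it. Marker scores were not run for the steps between later times, and Slfn4 could not be tested with a mean of at least 1 CPM, nor from 6 to 24 h in WT on the compared libraries alone. The counts of members called moved as follows. From 3 to 6 h in WT 1 member was called, against 0 with no filter and 2 under limma-voom, DESeq2 or the mouse block. The count was 0 to 2 with a library or mouse left out. The shares of all genes were 25.7%, against 10.4%, 26.0%, 28.2% and 36.1%. In Aim2-/- cells 1 member was called, against 0 with no filter or only the libraries compared (0 to 1 with a library or mouse left out). The shares there were 23.3%, against 9.65% and 7.79%. Between genotypes at 0 h 1 member was called, against 0 with library totals, only the libraries compared, limma-voom or marker scores. That count was 0 to 1 with a library or mouse left out. Shares of all genes at 0 h were 5.23%, against 4.42%, 2.36%, 5.23% and 1.36%. With no filter 3 members were called at 3 h and 2 at 6 h, Slfn5 and Slfn8 at both and Slfn1 at 3 h, all lower in Aim2-/- cells. Mouse number as a block over the genotypes called 3, 4, 4 and 1 members at 0, 3, 6 and 24 h (23.6%, 15.2%, 36.0% and 21.1% of all genes), but same-numbered mice of different genotypes share only a number (r of -0.165 to 0.268 between them). With a library or mouse left out, the counts ranged from 3 to 6 at 3 h in WT, 2 to 4 at 3 h in Aim2-/- cells, and 0 to 1 between genotypes at 24 h and summed by mouse. The interaction at 24 h gave 0 members, and 1 with the mouse block, where 2.77% of all genes were called. The mouse block changed no other call of a member than those given beside the results.

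Some values that were not called changed sign or came to 0.0 with marker scores as terms. In WT at 24 h these were Slfn8 (0.002, SE 0.322) and Slfn5 (0.266). Between genotypes they were Slfn3 and Slfn5 at 0 h (0.127 and 0.0) and Slfn3 at 6 h (0.025). From 3 to 6 h in WT, Slfn3 ranged from -0.717 to 0.054 and Slfn4 from -0.104 to 0.942 with a library or mouse left out. The causes were not tested. With 3 mice a group, 50% of 2-fold and 63.8% of 3-fold changes were recovered in simulated counts. A member that did not pass is thus not shown to be unchanged.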
